A study of Rattus norvegicus with 9 samples.

Results

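The liver sinusoidal endothelial transcripts described here are a list of 36 genes that mark the cells lining the liver's capillaries. A gene was represented by the probe set with the highest mean signal among those whose only annotated symbol was that gene. In this way 32 of the 36 genes were found, out of 14217 genes with such a probe set. No probe set was matched to Clec4g, Robo4, Cdh5 or Oit3, so these are not analysed here. Of the 32, 30 passed a filter on low signals and entered the tests, while Calcrl and Cldn5 fell below it.

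The livers came from 9 Wistar rats, 3 each from a drug group given the agent named 7-P, a model group and a control group. In the study 36 rats had been assigned at random to these groups, 12 to each, and 3 of each were drawn at random for the arrays. All 9 were labelled male, with a body weight of 180 to 220 g and no age given. How the model was made, whether the drug rats also underwent it, the dose and time of 7-P, and what 7-P is are not given in the sources used here. Each array was 1 rat, hybridised to an Affymetrix rat array with a single label. Whole liver was measured, so fewer endothelial cells and less RNA per cell cannot be told apart.

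Sinusoidal endothelial cells form a porous wall between the blood and the hepatocytes. They clear waste molecules from blood through scavenger and endocytic receptors, they respond to VEGF and to angiopoietins, and they secrete factors that instruct hepatocytes, among them Wnt ligands, bone morphogenetic proteins and clotting factors. Several genes on the list are shared with other cells: Mrc1 and Fcgr2b with macrophages, Ets1 with lymphocytes, Gata4 with stellate cells, and Pecam1, Kdr and Flt1 with the endothelium of larger vessels.

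Values below are log2 signals after quantile normalization, a scale on which a difference of 1 is a change by a factor of 2, and differences carry their standard error (SE) from limma. Before normalization the trimmed mean signal lay between 33.2 and 66.5 in the drug arrays, 34.5 and 43.4 in the model arrays, against 34.1 and 80.4 in the control arrays. Some arrays stood apart. The ratio of the 3' to the 5' signal of Gapdh, a measure of RNA integrity that is high where 5' signal is lost, was 1.31, 9.20 and 8.71 in the drug arrays, 4.09, 12.7 and 9.77 in the model arrays, against 1.52, 3.14 and 3.07 in the control arrays. Xist, a transcript of females, was low in drug 3 (3.05) and control 2 (2.65) and between 8.06 and 10.9 in the other 7 arrays, which goes against the male label of those 7. The Y-linked Eif2s3y was at 7.17 in drug 3 and 6.99 in control 2 and at most 2.53 elsewhere.

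The defining markers that could be read, Lyve1, Stab1, Stab2, Pecam1 and Kdr, passed the filter, and 0 of the listed probe sets had a deposited signal at or below 0 on any array. The summed linear signal of the 32 transcripts was 1551 to 1840 units in the drug arrays, 1938 to 2688 in the model arrays and 1821 to 1996 in the control arrays. The drug and model ranges did not overlap, while the model and control ranges overlapped. A linear sum weighs bright transcripts most, and the gap between drug and model ranges rests on Lyve1. Its log2 signal was 6.99 in drug 1 and 8.70 in model 3. With Lyve1 left out of the sum, drug 1 lies above model 3, so the ranges overlap. Within a group, the pooled standard deviation of a transcript had a median of 0.45 over the 30, against 0.49 over all probe sets tested. It was lowest for Ets1, at 0.18, and highest for Rspo3, at 1.74.

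Most sinusoidal endothelial transcripts had lower values in drug than in model livers, but no single one passed the test. Of the 30 transcripts, 24 were lower and 6 higher, with a median difference of -0.27, where 52.1% of all probe sets were lower and their median was -0.02. All 3 drug arrays lay below all 3 model arrays for 9 of the 30, namely Lyve1, Stab2, Flt1, Tie1, Ptprb, Gpr182, Pecam1, Bmp2 and Ets1, against a background of 4.7% of the 18625 probe sets tested. None of the 30 lay above in all 3, with a background of 3.35%. At an adjusted p under 0.05 in limma 0 of 30 passed, as did 0% of all probe sets. At an unadjusted p under 0.05 there were 7, each lower in drug livers, with a background of 3.28%. Each of the 30 had an adjusted p of 0.998. The size of the non-overlapping group depended on the scaling and on the probe sets used. It was 5 of 30 (Bmp2, Ets1, Flt1, Lyve1 and Tie1, background 4.04%) with arrays centred on their median. Without normalization it was 3 (F8, Flt1 and Lyve1, background 2.82%). With all probe sets of a gene averaged it was 6 (Bmp2, Ets1, Lyve1, Pecam1, Stab2 and Tie1, background 4.42%), so Flt1, Gpr182 and Ptprb dropped out. Without drug 3, the array low in Xist, the 9 genes remained (background 8.09%), and the median was -0.33.

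Between model and control livers the transcripts split in direction, again with no single one past the test. Of the 30, 16 were higher and 14 lower, with a median of 0.25 against 0.02 for all probe sets, of which 51.1% were higher. All model arrays lay above all control arrays for 7, Bmp2, Ets1, F8, Flt1, Lyve1, Stab1 and Stab2, which is 23.3% of the 30 against a background of 11.8%. Only Esam lay below in all 3 model arrays, with a background of 10.9%. At an unadjusted p under 0.05 there were 4 of 30, 3 higher and 1 lower, close to the background of 12.1%, and adjusted p in limma was between 0.384 and 0.939, so 0 passed, against 0% of all probe sets. The median was 0.06 without model 1 or without control 2, and 0.04 with median centring (all probe sets -0.07). Without normalization it was -0.29 (all probe sets -0.40), and 0 transcripts then lay above. The count above was 12 without control 1 (background 15.6%) and 11 without model 3 (background 15.1%). The 3 model arrays had higher Gapdh ratios than any control array, so RNA integrity and group cannot be told apart here. With that ratio as a term the median was 0.35, a value that does not separate them either.

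Against control livers, drug livers had 20 of 30 transcripts lower and 10 higher, with a median of -0.29, where 51.5% of all probe sets were lower and their median was -0.02. All drug arrays lay below all control arrays for 6, Bmp2, Eng, Esam, Gpr182, Ptprb and Ramp2, or 20% of the 30 against a background of 6.49%. None lay above, with a background of 6.05%. In limma 0 passed, against 0% of all probe sets, with adjusted p between 0.676 and 0.997, and 3 had an unadjusted p under 0.05, each lower, with a background of 7.22%. This median was -0.09 without drug 2, -0.10 without drug 3, -0.11 without control 1, -0.08 with the Gapdh term and -0.05 with a filter at the 60th percentile. Without both control 2 and drug 3, the arrays low in Xist, it was 9.6e-05, and 10 transcripts then lay below (background 13.6%). Each pair of comparisons shares the arrays of 1 group, so the 3 are not independent of each other.

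**Figure D1:**
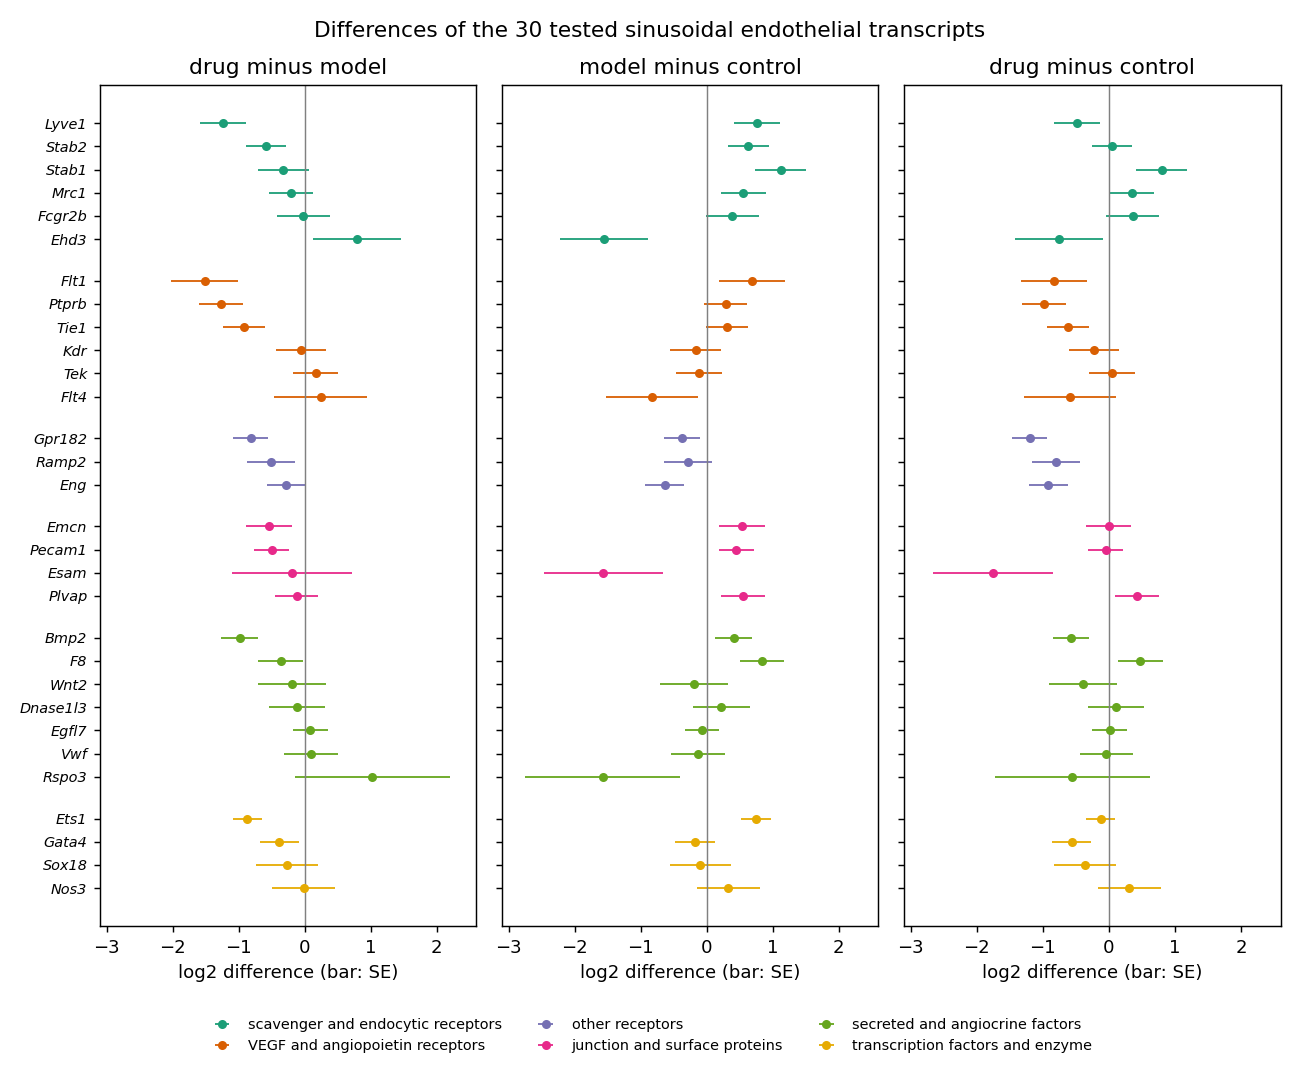
Log2 differences of the 30 tested transcripts (points) with their SE (bars), by role, for drug minus model, model minus control and drug minus control. In drug minus model, 24 of the 30 points lie left of 0, and Flt1, Ptprb and Lyve1 lie farthest left.

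Of the 6 scavenger and endocytic receptors, 5 were lower in drug than in model livers (median -0.27) and 5 higher in model than in control livers (median 0.59). The hyaluronan receptor Lyve1 was low in drug livers relative to model livers. Its signal was 6.99, 8.16 and 7.86 in the drug arrays, 8.60, 9.42 and 8.70 in the model arrays, against 7.83, 8.48 and 8.13 in the control arrays. Every model array lay above every other array, while drug and control arrays overlapped. The drug minus model difference was -1.24 (SE 0.350, limma adjusted p = 0.998), the model minus control difference 0.76 (SE 0.350, adjusted p = 0.417) and the drug minus control difference -0.48 (adjusted p = 0.745). A further Lyve1 probe set gave -0.79, 0.27 and -0.52 for the same differences, and there too the drug arrays lay below the model arrays.

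Stab1, a scavenger receptor of sinusoidal endothelium that macrophages also make, had its largest difference between model and control livers. It was at 5.16, 6.60 and 6.28 in the drug arrays, 6.12, 6.19 and 6.69 in the model arrays, against 5.60, 5.12 and 4.92 in the control arrays. The model arrays lay above the control arrays, by 1.12 (SE 0.385, adjusted p = 0.384), and the drug arrays spread over both. Drug minus model was -0.32 (SE 0.385), and 0.10 without drug 1. Stab2, its close relative and a main receptor for the clearance of hyaluronan, had 5.83, 5.65 and 4.89 in the drug arrays, 6.09, 6.15 and 5.89 in the model arrays, against 5.76, 5.29 and 5.18 in the control arrays. The model arrays were the 3 highest, but the gap to the highest drug array was small. The differences were -0.59 (SE 0.304) for drug minus model and 0.63 (SE 0.304) for model minus control.

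The other 3 receptors of this group did not separate drug from model arrays. Mrc1, the mannose receptor, had 7.09, 6.34 and 5.95 in the drug arrays and 7.07, 6.71 and 6.23 in the model arrays, a difference of -0.21 (SE 0.338), and 5.98 to 6.37 in the control arrays. Fcgr2b, an Fc receptor that removes small immune complexes, differed by -0.02 (SE 0.400) between drug and model livers, with a 95% confidence interval of -0.91 to 0.87. Ehd3, an ATPase of endosome recycling, had differences of the opposite sign. It stood at 5.36, 3.93 and 3.87 in the drug arrays, 2.64, 5.21 and 2.93 in the model arrays, against 5.38, 5.33 and 4.73 in the control arrays. Model 2 lay with the control arrays and apart from the other model arrays. The model minus control difference was -1.56 (SE 0.663, adjusted p = 0.409), and drug minus model was 0.80 (SE 0.663), or -0.20 with array weights.

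Among the receptors of VEGF and angiopoietin signalling, 3 of 6 lay lower in all drug arrays than in all model arrays, where 4.7% of all probe sets did. Their median difference was -0.49. Flt1, a VEGF receptor that binds the ligand tightly and signals weakly, had 2.96, 3.11 and 1.68 in the drug arrays, 3.77 to 4.59 in the model arrays and 3.09 to 3.65 in the control arrays. Its drug arrays were low, with drug 3 the lowest and a mean of 2.58, below the filter's limit of 2.82. The drug minus model difference was -1.52 (SE 0.503, limma adjusted p = 0.998). Its other 2 probe sets were below the filter and gave -0.26 and 0.45, so they disagree in direction. The Flt1 difference was -0.44 as the mean of its probe sets.

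Ptprb, the endothelial phosphatase that removes phosphate from the angiopoietin receptor, had 6.45, 5.31 and 6.13 in the drug arrays, 7.61, 7.26 and 6.82 in the model arrays, against 6.78, 7.14 and 6.92 in the control arrays. Here the drug arrays were below all others, and model and control arrays overlapped. The differences were -1.27 (SE 0.331, adjusted p = 0.998) for drug minus model and -0.98 (SE 0.331, adjusted p = 0.683) for drug minus control. A further Ptprb probe set gave only -0.18 and -0.14. Tie1, the partner receptor of Tek, had 5.15, 4.93 and 4.02 in the drug arrays, 5.68, 5.50 and 5.69 in the model arrays, against 5.51, 5.13 and 5.31 in the control arrays. The drug minus model difference was -0.92 (SE 0.318), with drug 3 lowest.

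The receptors Kdr and Tek showed no such separation. Kdr, the main signalling receptor of VEGF in endothelium, had 7.73, 6.63 and 6.72 in the drug arrays, 7.78, 6.86 and 6.60 in the model arrays, against 7.54, 7.10 and 7.09 in the control arrays. The groups overlapped throughout, and the drug minus model difference was -0.06 (SE 0.383, 95% confidence interval -0.91 to 0.80), a direction that turned under several settings. A further Kdr probe set, below the filter, gave 1.21. Tek, the angiopoietin receptor, differed by 0.16 (SE 0.346) between drug and model livers and by -0.12 (SE 0.346) between model and control livers. Flt4, the receptor of VEGF-C, ranged from 1.85 to 4.62 among the drug arrays alone, wider than its 2.33 to 3.54 in the model arrays and 3.31 to 3.85 in the control arrays.

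The 3 other tested receptors were lower in each comparison, with medians of -0.51 for drug minus model, -0.38 for model minus control and -0.92 for drug minus control. The chemokine-binding receptor Gpr182 had the smallest p of the list in drug against control. It had 5.58, 5.10 and 5.29 in the drug arrays, 6.43, 6.27 and 5.73 in the model arrays, against 6.34, 6.50 and 6.73 in the control arrays. The drug arrays lay below all 6 others, and model and control arrays overlapped. It differed by -1.20 (SE 0.270, adjusted p = 0.676) from control livers and by -0.82 (SE 0.270, adjusted p = 0.998) from model livers. A further, dimmer Gpr182 probe set gave -0.27 and 0.05, so the probe sets disagree.

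Eng, a coreceptor for bone morphogenetic proteins, had 5.82, 5.85 and 6.04 in the drug arrays, 5.81, 6.78 and 5.97 in the model arrays, against 6.94, 7.03 and 6.52 in the control arrays. The drug arrays were below the control arrays, and model 2 lay among the control values. The differences were -0.92 (SE 0.297, adjusted p = 0.683) for drug minus control, -0.64 (SE 0.297, adjusted p = 0.419) for model minus control and -0.28 (SE 0.297) for drug minus model. Ramp2, which with Calcrl forms the adrenomedullin receptor, had 4.97, 4.02 and 4.56 in the drug arrays, 5.40, 5.35 and 4.34 in the model arrays, against 5.22, 5.23 and 5.50 in the control arrays. The drug arrays lay below the control arrays, with a difference of -0.80 (SE 0.364, adjusted p = 0.684), and model 3 lay with the drug arrays. Calcrl itself, below the filter, ranged from 2.04 to 4.32 in drug, 2.24 to 2.81 in model and -0.08 to 4.05 in control arrays.

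**Figure D2:**
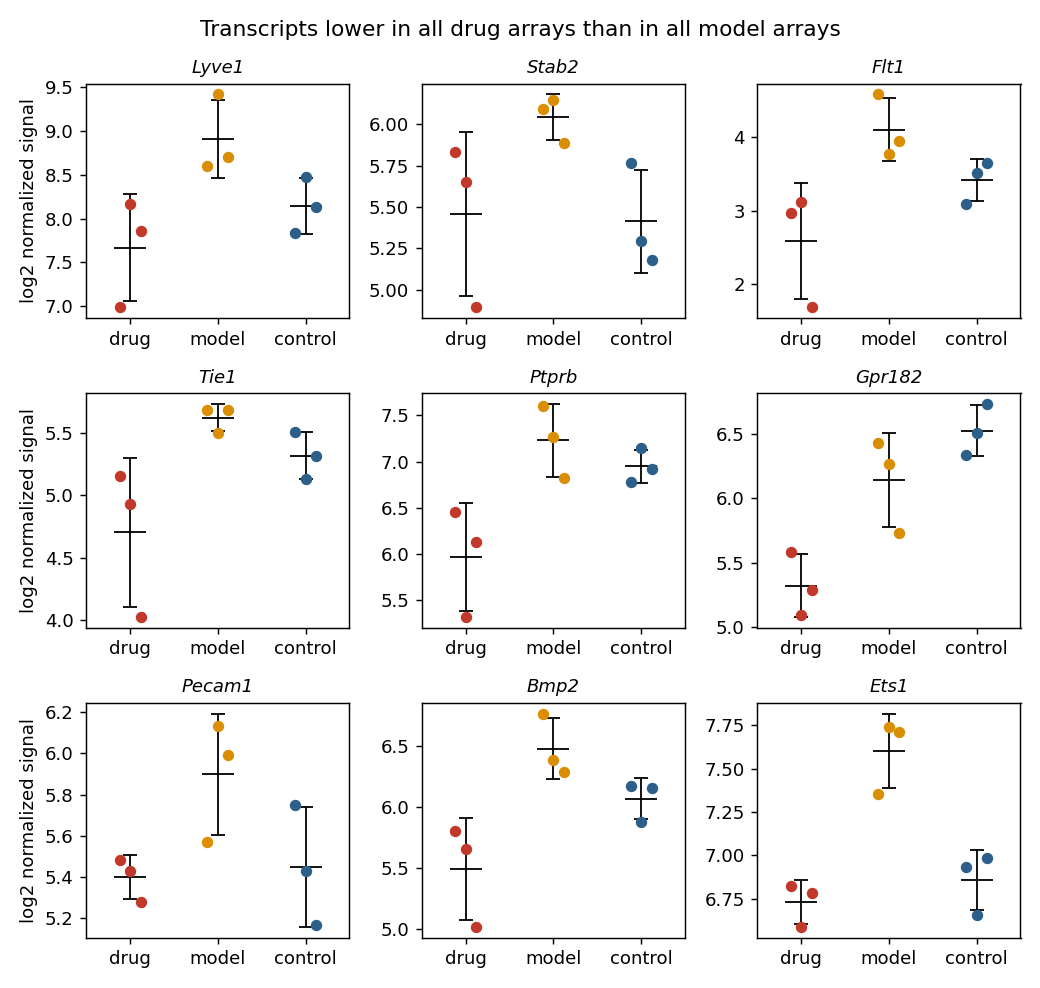
Log2 normalized signal on each array (points) with group mean and SD (bars, 3 arrays a group) for the 9 transcripts whose drug arrays all lay below all model arrays. Ptprb, Gpr182 and Bmp2 in drug livers are also below every control array, while in Lyve1, Stab2, Flt1, Bmp2 and Ets1 every model array is above every control array.

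The 4 tested junction and surface proteins were lower in drug than in model livers, with a median of -0.34. Pecam1, an adhesion molecule of all endothelium, had 5.48, 5.43 and 5.28 in the drug arrays, 5.57, 6.13 and 5.99 in the model arrays, against 5.75, 5.43 and 5.17 in the control arrays. The highest drug array and the lowest model array lay close together, and the difference was -0.50 (SE 0.262, adjusted p = 0.998). Emcn, a sialoglycoprotein of capillary and venous endothelium, differed by -0.54 (SE 0.346) between drug and model livers, with overlap. Plvap, a protein of the diaphragms that span endothelial pores, had 4.82 to 5.19 in the drug arrays, 4.45 to 5.48 in the model arrays and 4.33 to 4.85 in the control arrays.

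Esam, a cell adhesion molecule at endothelial junctions, had uneven values. It was at 4.42, 4.02 and 1.40 in the drug arrays and 4.90, 3.88 and 1.63 in the model arrays, against 4.95 to 5.17 in the control arrays. The control arrays were tight and the highest 3, and drug 3 and model 3 were far below the rest. The difference was -1.76 (SE 0.904, adjusted p = 0.697) for drug minus control and -1.57 (SE 0.904, adjusted p = 0.476) for model minus control. Cldn5, a tight junction claudin, was below the filter, with -1.37 to 3.11 in drug, 1.88 to 3.10 in model and 0.45 to 3.85 in control arrays.

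The 7 secreted factors were split, with 4 lower and 3 higher in drug than in model livers (median -0.11). Bmp2, which endothelial cells secrete and which drives hepcidin in hepatocytes, separated all 3 groups at its brightest probe set. It had 5.80, 5.65 and 5.02 in the drug arrays, 6.76, 6.39 and 6.28 in the model arrays, against 6.17, 5.87 and 6.16 in the control arrays. The drug arrays were lowest and the model arrays highest, without overlap. Drug minus model was -0.98 (SE 0.278, adjusted p = 0.998), drug minus control -0.58 (SE 0.278, adjusted p = 0.685) and model minus control 0.41 (SE 0.278, adjusted p = 0.534). A further Bmp2 probe set gave -0.47, -0.57 and -0.09 for the same differences, with overlap in each, so it did not separate the groups.

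F8, the clotting factor VIII gene, was higher in model than in control livers at its brightest probe set. It had 5.16, 5.95 and 5.90 in the drug arrays, 5.80, 6.55 and 5.74 in the model arrays, against 4.96, 5.60 and 5.01 in the control arrays. The model arrays lay above the control arrays by 0.84 (SE 0.337, adjusted p = 0.401), and the drug arrays overlapped both. F8 has 5 probe sets that do not agree: of the other 4, 1 gave 1.28 for model minus control and 3 gave -0.43, -1.01 and -2.49, the last 2 of them below the filter. As the mean of its probe sets the difference was -0.36.

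The other secreted factors overlapped between groups in each comparison. For drug minus model, Wnt2 differed by -0.20 (SE 0.514), Dnase1l3, a secreted DNase, by -0.11 (SE 0.428), the von Willebrand factor gene Vwf by 0.09 (SE 0.404) and Egfl7, a matrix-bound endothelial factor, by 0.09 (SE 0.262). Rspo3, which strengthens Wnt signals around the central vein, stood at 3.98, 3.54 and 2.42 in the drug arrays, 3.81, -0.97 and 4.04 in the model arrays, against 3.62, 4.62 and 3.36 in the control arrays. Model 2 alone was near 0 on this scale, and the model minus control difference of -1.58 (SE 1.17) rests on that array. A further Rspo3 probe set, below the filter, went the other way. Its values were 0.55, 1.65 and 2.75 in the drug arrays, 4.22, 3.23 and 3.11 in the model arrays, against 0.41, 1.80 and 1.31 in the control arrays. There the model arrays lay above all others, with 2.35 for model minus control and -1.87 for drug minus model, so the Rspo3 probe sets disagree. A further Egfl7 probe set, with control 2 at 2.72 and the other arrays at 4.97 or more, gave 1.32 for model minus control and 1.38 for drug minus control, where the brightest gave -0.07 and 0.01.

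The 3 transcription factors and Nos3 were lower in drug than in model livers, with a median of -0.33. Ets1, a transcription factor of endothelial and lymphoid cells, had the smallest p of the list in 2 comparisons. It had 6.83, 6.59 and 6.78 in the drug arrays, 7.35, 7.74 and 7.71 in the model arrays, against 6.93, 6.66 and 6.98 in the control arrays. Every model array was above all 6 others, and drug and control arrays overlapped. The difference was -0.87 for drug minus model (SE 0.222, limma unadjusted p = 0.00285, adjusted p = 0.998) and 0.74 for model minus control (SE 0.222, limma unadjusted p = 0.00732, adjusted p = 0.384). Gata4, a factor that specifies sinusoidal endothelium in mice, differed by -0.38 (SE 0.300) for drug minus model and -0.56 (SE 0.300) for drug minus control. Sox18, another endothelial factor, and Nos3, the endothelial nitric oxide synthase, overlapped in each comparison, with drug minus model at -0.27 (SE 0.469) and -0.01 (SE 0.476).

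**Figure D3:**
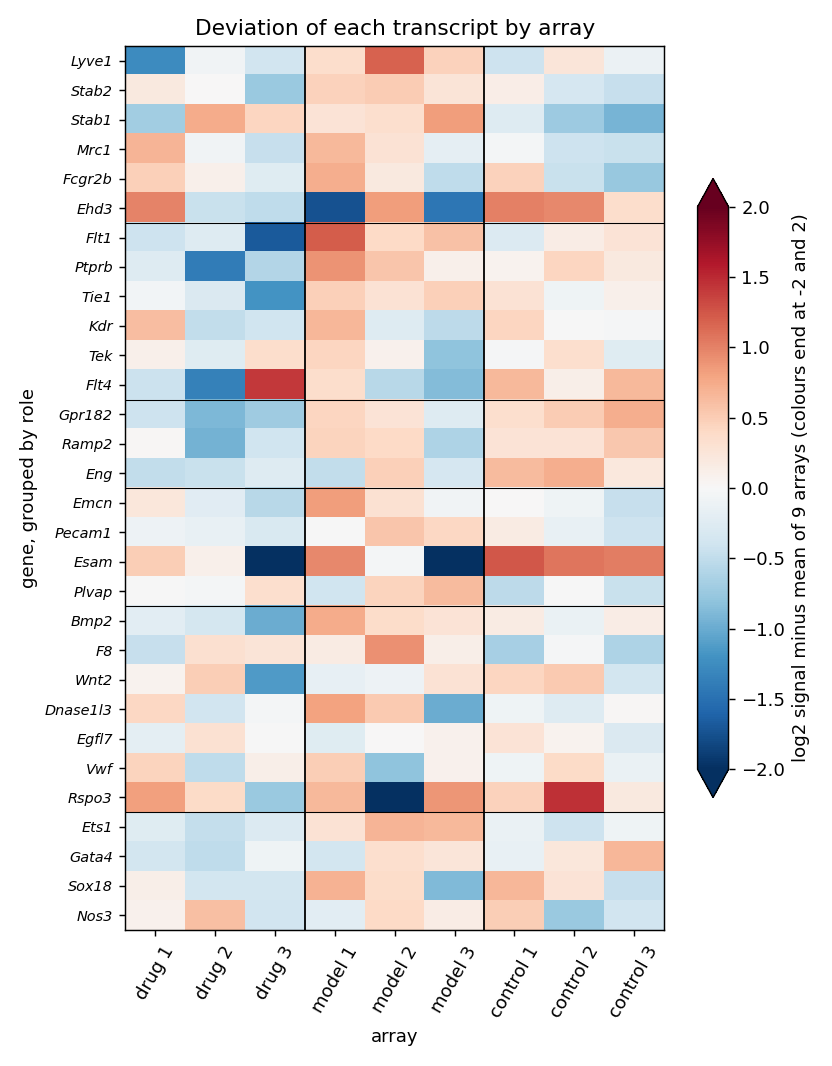
Deviation of each of the 30 transcripts from its mean over the 9 arrays (colour, log2), with arrays in columns by group and genes in rows by role. The drug columns are mostly blue for Lyve1, Flt1, Ptprb, Tie1, Gpr182, Bmp2 and Ets1, while the darkest cells of Esam are drug 3 and model 3, those of Ehd3 model 1 and model 3, and that of Rspo3 model 2.

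The sequences before the start sites of 5 of the 9 transcripts that were lower in all drug arrays are shown, since these genes had lower values in the same arrays and the table of promoters used here holds them. It held 23 of the 36 genes. They are the 250 bases before the start in RefSeq's GRCr8 assembly, 5′ to 3′ on the gene's strand: Lyve1 at chr1:174410978-174411227 (minus), Stab2 at chr7:23320563-23320812 (minus), Flt1 at chr12:12333180-12333429 (plus), Tie1 at chr5:137304982-137305231 (minus) and Gpr182 at chr7:65474111-65474360 (minus). Capitals mark matches, on either strand, to the ETS motifs AGGAAG or CGGAAG, the GATA motif AGATAA or the SOX motifs ACAATG or ACAAAG. The ETS spellings differ in their first base.
Lyve1: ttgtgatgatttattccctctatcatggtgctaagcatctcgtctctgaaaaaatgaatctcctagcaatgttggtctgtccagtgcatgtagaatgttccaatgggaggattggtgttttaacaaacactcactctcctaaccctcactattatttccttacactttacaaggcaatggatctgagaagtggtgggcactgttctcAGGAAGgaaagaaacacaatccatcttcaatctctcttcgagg
Stab2: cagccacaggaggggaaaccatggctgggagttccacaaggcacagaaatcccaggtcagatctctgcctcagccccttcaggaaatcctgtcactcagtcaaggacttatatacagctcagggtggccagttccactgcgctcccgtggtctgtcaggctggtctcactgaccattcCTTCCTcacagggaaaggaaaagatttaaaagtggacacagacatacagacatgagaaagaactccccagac
Flt1: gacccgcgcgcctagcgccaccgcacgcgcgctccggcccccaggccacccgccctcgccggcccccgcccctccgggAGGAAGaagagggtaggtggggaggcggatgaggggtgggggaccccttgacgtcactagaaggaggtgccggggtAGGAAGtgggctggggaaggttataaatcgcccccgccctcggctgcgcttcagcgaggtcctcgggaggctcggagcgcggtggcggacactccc
Tie1: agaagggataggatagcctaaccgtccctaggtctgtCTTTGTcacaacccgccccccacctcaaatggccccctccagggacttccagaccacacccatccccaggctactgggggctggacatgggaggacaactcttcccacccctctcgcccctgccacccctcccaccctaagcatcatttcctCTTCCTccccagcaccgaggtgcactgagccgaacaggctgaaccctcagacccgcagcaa
Gpr182: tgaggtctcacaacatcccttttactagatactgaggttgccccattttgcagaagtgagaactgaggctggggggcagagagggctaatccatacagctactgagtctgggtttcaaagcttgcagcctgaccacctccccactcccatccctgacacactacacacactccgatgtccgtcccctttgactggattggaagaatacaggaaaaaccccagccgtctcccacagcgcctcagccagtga

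The ETS letters were found in 4 of these 5 windows: at -43 to -38 from the start in Lyve1, -72 to -67 in Stab2, -61 to -56 in Tie1, and at -172 to -167 and -96 to -91 in Flt1. Gpr182 held none of the letters searched. Tie1 also held a SOX match at -213 to -208. Of the 23 windows, 15 (65.2%) held an ETS match, against 39.4% of all 33469 promoter windows of this length, 7 (30.4%) a SOX match, against 25.3%, and 0 a GATA match, against 10.3%. The windows of the list had a median GC content of 59.2%, against 51.2% over all windows. The comparison was not tested, and a match of letters is not a binding site.

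The ligands and partners of these receptors split in direction, and none passed the test. Of 9 listed and 5 tested VEGF and angiopoietin ligands and coreceptors, 2 were lower in drug than in model livers and 3 higher. All drug arrays lay below all model arrays for 1 of the 5, Nrp1 (background 4.7%). The coreceptor Nrp1, read at the brighter of its 2 probe sets, had 4.91, 4.98 and 3.996 in the drug arrays. It had 5.91, 5.70 and 5.24 in the model arrays, against 5.32, 5.64 and 5.12 in the control arrays. Every drug array was below all others, and Nrp1 was the only 1 of the 5 below all control arrays (background 6.49%). Vegfa, the main VEGF ligand, had 7.96, 9.93 and 9.93 in the drug arrays, 8.71, 9.11 and 9.85 in the model arrays, against 7.61, 7.13 and 8.26 in the control arrays. Its model arrays lay above the control arrays, by 1.56 (limma adjusted p = 0.384), as was so for 2 of the 5 (background 11.8%). Drug 1 lay with the control arrays.

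Of 8 tested endothelial transcription factors, 7 were lower in drug than in model livers, with a median of -0.21. Sox17, 1 of the 8, lay lower in all drug than in all model arrays (background 4.7%), with a difference of -0.72. Fli1, an ETS family factor, lay above all control arrays in the model arrays, by 1.02, and in the drug arrays, by 0.90. It was the only 1 of the 8 to do so in either comparison (backgrounds 11.8% and 6.05%). Of 8 genes of shear stress, vessel tone and anticoagulation 6 were lower in drug than in model livers, with a median of -0.35. In model against control 5 were higher and 3 lower (median 0.24), with the lowest difference, -0.88, in Edn1. All model arrays lay above all control arrays for 2 of the 8 (background 11.8%). These were thrombomodulin, Thbd, by 0.81, and Adm, by 0.61. Thbd and Procr, 2 of these 8, lay lower in all drug than in all model arrays (background 4.7%). Of 10 genes of the BMP9 to ALK1 arm 6 were lower and 4 higher in drug livers than in model livers (median -0.20). Id2, 1 of these 10, lay higher in all drug than in all model arrays (background 3.35%). Of 5 genes of the Notch arm 3 were lower in drug than in model livers (median -0.07). Of 6 adhesion genes 3 were lower and 3 higher in drug than in model livers (median -0.10). In model against control these genes also split, 3 higher and 3 lower (median -0.02). There the difference was 1.29 (SE 0.439) for Icam2, an adhesion molecule of resting endothelium. It was -2.08 (SE 1.16) for the junction molecule Jam3 and -1.36 (SE 1.03) for the scavenger receptor Cd36, a pair named after their values were seen. Both overlapped between the groups. Jam3 was at 4.88, 0.64 and 0.37 in the model arrays, and Cd36 at 10.4, 7.24 and 8.03 in the control arrays.

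Markers of other liver cells were set beside these values. Of 13 tested Kupffer cell and macrophage genes, 10 were lower in drug than in model livers, with a median of -0.28, against -0.27 in the endothelial list, and 1 of 13 (7.69%) had all drug arrays below all model arrays, near the background of 4.7%. Their summed signal was 2218 to 3406 units in the drug arrays, 2395 to 4099 in the model arrays and 1589 to 2531 in the control arrays, with drug and model overlapping. In model against control 9 of 13 were higher (median 0.84), among them Cd163 by 1.25 and Cd5l by 1.74, and 4 were lower. Cd14 differed by -0.37 and C1qb by -0.21. All model arrays lay above all control arrays for 4 of the 13 (background 11.8%), and below for 1, Cd14 (background 10.9%). Of 10 stellate cell and fibroblast genes 8 were lower in drug than in model livers, with a median of -0.28 and 0 of 10 below in all drug arrays (background 4.7%). Their summed signal was 562 to 870 in the drug arrays, 787 to 1066 in the model arrays and 546 to 749 in the control arrays. This sum weighs the brightest of them, Col3a1, most. Its log2 signal was 8.76 to 9.24 in the model arrays and 7.84 to 8.39 in the control arrays. By gene, model against control was split, with 5 of 10 higher and 5 lower (median -0.01). All model arrays lay above all control arrays for 1 of the 10, Col3a1 (background 11.8%), and below for 1, Col1a2 (background 10.9%). Of 7 lymphocyte genes 5 were lower in drug livers (median -0.24). In model against control 7 of 7 were higher (median 0.52), where 51.1% of all probe sets were. Only 1 of the 7 lay above all control arrays in all model arrays (background 11.8%). Their median deviation by array was 0.48, 0.84 and 0.15 in the model arrays, against 0.30, -1.39 and 0.46 in the control arrays. Control 2, an array low in Xist, was thus far below the rest. Hepatocyte genes had a median of 0.01 in drug minus model and -0.18 in model minus control, and 3 bile duct genes 0.16 and -0.54. No marker of these lists had a deposited signal of 0 on any array. The part of the other cell types in the endothelial values was not tested.

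Summed up by array, the median deviation of the 30 transcripts from their 9-array means was 0.01, -0.25 and -0.39 in the drug arrays, 0.44, 0.36 and 0.09 in the model arrays, against 0.16, 0.10 and -0.10 in the control arrays. The drug arrays lay below the model arrays, with drug 1 and model 3 closest, and the control arrays lay between and overlapped both. For macrophage genes the same measure was highest in model 2, at 0.89, and in drug 1, at 0.80. Drug 1, with the lowest Gapdh ratio of the 9 arrays, was the highest drug array in the endothelial measure. With a term for the Gapdh ratio the median drug minus model difference was -0.35, and without control 1 and drug 1 it was -0.37, with 10 transcripts below at a background of 10%.

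**Figure D4:**
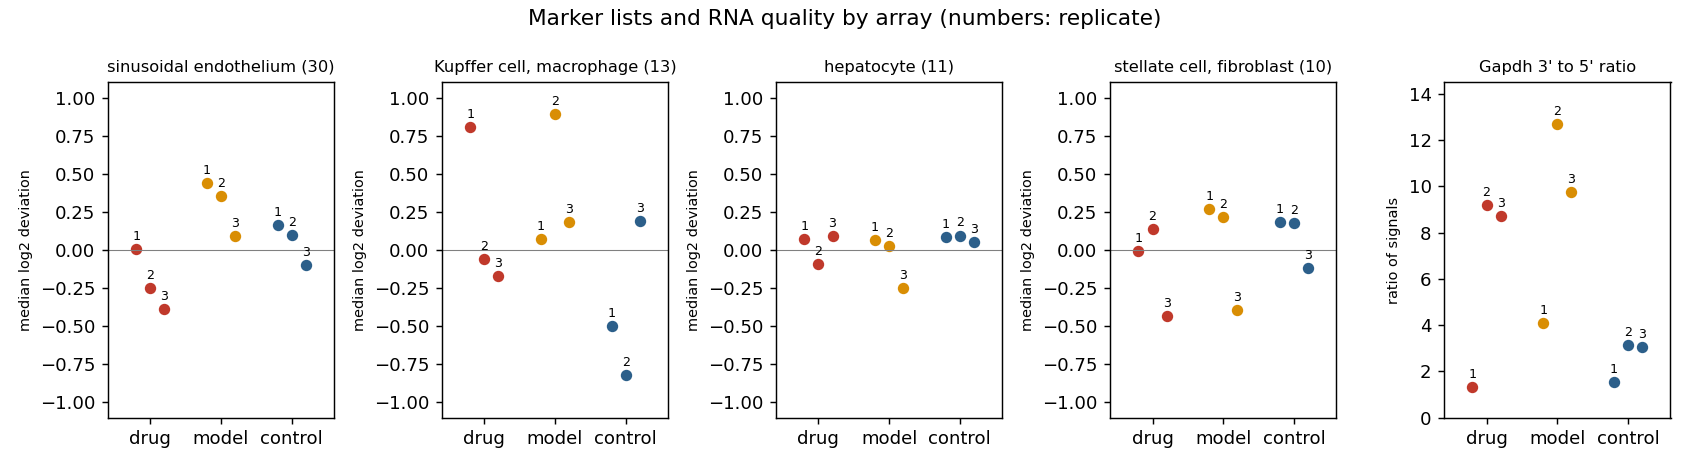
Median log2 deviation of the tested genes of 4 cell type lists from their 9-array means, by array (left 4 panels), and the Gapdh 3' to 5' signal ratio (right panel), with replicate numbers beside the points. The endothelial medians of the drug arrays, -0.39 to 0.01, lie below those of the model arrays, 0.09 to 0.44, and the Gapdh ratios of all model arrays lie above those of all control arrays.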

How the data were processed

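RNA from 9 rat livers was measured on a one-colour Affymetrix array. The deposited values are linear signal intensities, 1 for each probe set and array, produced with GCOS 1.2 per the submitters' processing notes. The algorithm's settings and any scaling target are not given in the sources used here. Trimmed means differed between arrays, so log2 signals were quantile-normalized. The genes, lists, tests and settings were chosen with earlier results of these data known and are not independent of them.

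Of 31042 probe sets without the 57 controls, 20826 had 1 gene symbol in the platform annotation, 436 several and 9780 none. Probe sets at or above the 40th percentile of mean log2 signal (2.82), 18625 in all, were tested with limma 3.58.1 under R 4.3.3. The 9 arrays shared 1 linear model (lmFit), moderated by eBayes with a trend on intensity, and tests were two-sided. Adjustment was by Benjamini-Hochberg over all 18625 probe sets, with a threshold of 0.05. The fit was tested on simulated data. This filter used the mean of all arrays, so a transcript high in 1 group could pass through that group. Values given in full are those of the 6 smallest p in each comparison and of the defining markers. Tie1, Esam, Mrc1, Rspo3 and the other transcripts named are examples of each role, chosen after their values were seen.

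With 3 arrays a group, an exact permutation test cannot give a two-sided p under 0.1, so none was run. The number of arrays limits the precision. Arrays of a group correlated at 0.81 to 0.87, so none was a copy of another. The labels do not say more of how rats were housed or processed together. Motifs were searched by exact match on both strands. Alternatives were 3 other scalings, omitting the filter or raising it to the 60th percentile, adding 16 units to signals, dropping the trend or the moderation, array weights, a fit of the compared groups alone, the replicate block, averaging all probe sets of a gene, a term for the log2 Gapdh ratio, a term for control 2 and drug 3, both pairs of arrays that stood apart left out, and each array left out in turn.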

Additional observations from a re-analysis of the deposited data

How the results depend on the processing

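None of the 30 transcripts passed an adjusted p of 0.05 in any comparison under any setting run. Over all probe sets, model against control gave 1 call without normalization, 4 with array weights, 3 with the replicate block, 1 without control 1 and drug 1, and 0 to 1 with single arrays left out. Drug against model gave 1 call with only the 2 groups fitted, 1 without control 1 and drug 1, and 0 to 1 with single arrays left out. The main fit did not take the replicate numbers as pairs. Of 9 same-numbered pairs, 5 had correlated deviations above 0.1 (-0.01 to 0.48), with 0.20, 0.39 and 0.48 for replicate 1. Only 3 of 9 arrays correlated best with their own number. Whether equal numbers mark a shared batch was not tested. The block changed no call among the 30.

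The median of the 30 in drug against model kept its sign and lay between -0.44 and -0.25 with single arrays left out. In model against control it was -0.29 without normalization, where all probe sets shifted by -0.40, 0.0426 with median centring, 0.065 without control 2 and drug 3, and 0.0643 to 0.33 with single arrays left out. Less the median of all probe sets, the value without normalization was 0.11. In drug against control it was -0.63 without normalization (all probe sets -0.36), -0.0498 with the 60th percentile filter, -0.084 with the Gapdh term, 9.6e-05 without control 2 and drug 3, and -0.35 to -0.0938 with single arrays left out. Scaling to 1 trimmed mean moved all probe sets by 0.16 in model against control.

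Counts of transcripts without overlap are given here with the share of all features tested under the same setting in brackets. Above control in model livers there were 0 without normalization (1.3%), 4 with median centring (9.7%), 4 with averaged probe sets (11%) and 12 without control 1 and drug 1 (15.6%). With single arrays left out there were 7 to 12 (11.8% to 22.3%). Below control in model livers there were 0 with trimmed mean scaling (8.26%) or the 60th percentile filter (12.6%), and 2 with averaged probe sets (10.8%), without control 1 and drug 1 (15.2%) or with control 2 and drug 3 left out (15.4%). With single arrays left out there were 1 to 4 (10.7% to 20.9%). Below model in drug livers there were 3 without normalization (2.82%), 5 with median centring (4.04%) and 6 with averaged probe sets (4.42%). There were 9 to 13 with single arrays left out (4.67% to 12.1%). Above model there were 0 to 1 with single arrays left out (3.32% to 10%). Above control in drug livers there were 4 without control 1 and drug 1 (26.2%), 2 with control 2 and drug 3 left out (12.7%), and 0 to 3 with single arrays left out (6% to 22%). Below control in drug livers there were 3 without normalization (3.76%), 11 without control 1 and drug 1 (26.3%), 10 with control 2 and drug 3 left out (13.6%), and 6 to 9 with single arrays left out (6.49% to 21.1%). The cause of these changes was not tested.

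Of 1047 differences of single transcripts under other settings, 33 changed sign. With the mean of its probe sets F8 was -0.36 for model minus control, 0.27 for drug minus model and -0.0895 for drug minus control. Without normalization Ptprb (-0.25) and Bmp2 (-0.0195) turned in model against control. There, Ramp2 was 0.0748 and Kdr 0.59 with the Gapdh term, and -0.47 to 0.061 and -0.52 to 0.0752 with single arrays left out. In drug against model, Stab1 was 0.10 without control 1 and drug 1 and -0.62 to 0.10 with single arrays left out, Ehd3 was -0.20 with array weights, and Eng was -0.47 to 0.0181 with single arrays left out. Kdr was 0.0902 without normalization, 0.0488 with median centring, 0.58 with the mean of probe sets, 0.10 without control 2 and drug 3, 0.0571 with a term for them, and -0.40 to 0.30 with single arrays left out. In drug against control, Kdr was 0.20 with the Gapdh term, Stab2 -0.23 without normalization, -0.13 with array weights and -0.14 to 0.33 with single arrays left out, and Pecam1 0.0941 with trimmed mean scaling, 0.0563 once control 1 and drug 1 were left out, 9.6e-05 without control 2 and drug 3, and -0.19 to 0.10 with single arrays left out.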
